A study of Mus musculus with 6 samples.

Results

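Interferons signal through paired receptors at the cell surface, Jak kinases bound to the receptor tails and Stat transcription factors, and the inhibitor Socs1 shuts the kinases off. The 10 genes described here are the receptor genes Ifnar1 and Ifnar2 (type I interferons), Ifngr1 and Ifngr2 (type II) and Ifnlr1 and Il10rb (type III), the kinase genes Jak1, Jak2 and Tyk2, and Socs1. They were chosen by name, and each of the 10 symbols matched 1 of the 55631 Ensembl gene IDs in the expression table. RNA was sequenced from palatal shelves, the outgrowths that form the roof of the mouth, of mouse embryos at E14.5, when shelves lift and meet at the midline, with 3 libraries per group. The KO embryos had the genotype p130Casfl/fl; CAG-Cre, and the control embryos, titled WT in the labels, had p130Casfl/fl. Both groups thus carry loxP-flanked p130Cas alleles (gene symbol Bcar1), which encode an adaptor protein of cell adhesions. The KO group adds a Cre transgene under the CAG promoter, which is active in most cell types, so it does not single out a tissue. The comparison was made to find transcripts that depend on p130Cas in a model of cleft palate.

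In resting tissue the receptors, Jak1, Jak2 and Tyk2 are made before any interferon arrives, and binding brings the 2 receptor chains and their kinases together. Tyk2 and Jak1 serve Ifnar1 and Ifnar2, Jak1 and Jak2 serve Ifngr1 and Ifngr2, and Jak1 and Tyk2 serve Ifnlr1 and Il10rb. The kinases phosphorylate Stat proteins, which enter the nucleus (with Irf9 after type I or III interferon) and switch on response genes, Socs1 among them.

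None of the 10 genes passed the test between KO and control shelves, whereas Irf9 and the inhibitor gene Usp18, which act after or upon them, were higher in KO. Values are FPKM, fragments scaled by the authors to gene length and library size, so levels of different genes can be set side by side. All 10 genes had a mean of at least 1 FPKM and entered the test, limma on log2(FPKM + 1) over 14714 genes. With a threshold of 0.05 on the adjusted p, 0 of the 10 passed, where 0.333% of all tested genes did. Of these, 48 were higher in KO (0.326%) and 1 was lower (0.0068%). At an unadjusted p under 0.05, the count was also 0 of 10, against 4.01% of all tested genes. The groups did not overlap for 1 of the 10 genes, Ifnar2, with KO higher, and for 9.06% of all tested genes (3.27% with KO higher and 5.79% with KO lower). The median log2 fold change, KO minus control, was 0.01 over the 10 genes and -0.02 over all tested genes. All 10 lay between -0.04 and 0.10, a size that 70.0% of tested genes did not exceed.

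**Figure D1:**
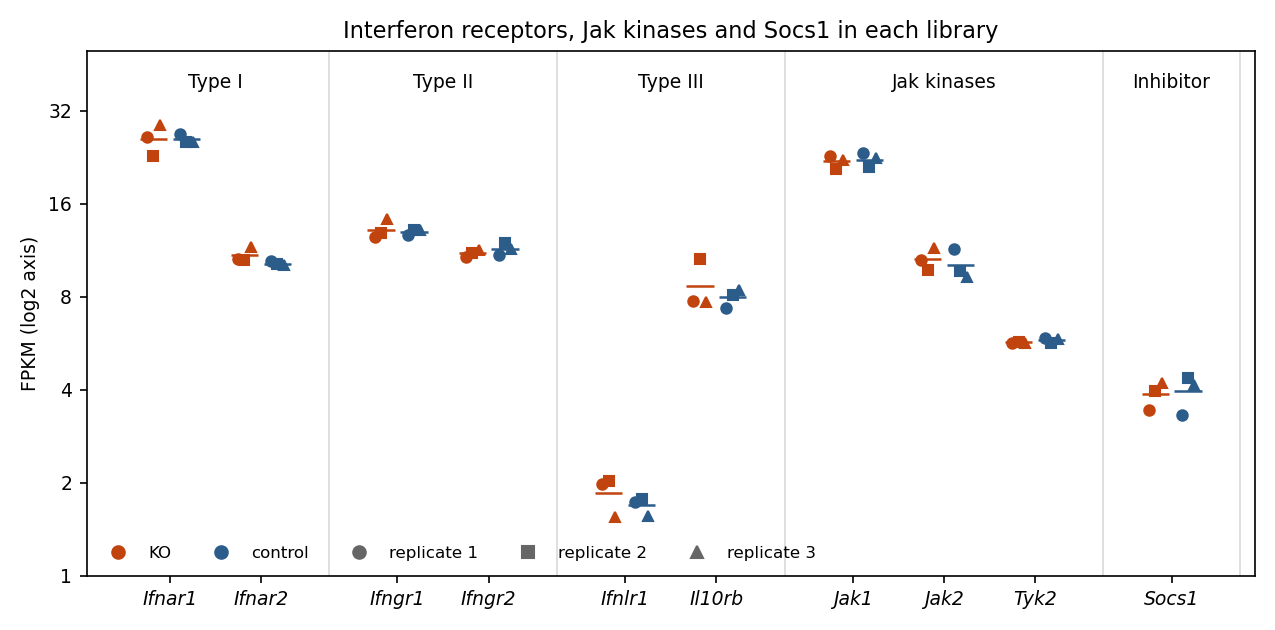
FPKM (log2 axis) of the 10 genes in each of the 6 libraries, KO left of control for each gene, with marker shape for the replicate and a bar for the group mean. Ifnar1 and Jak1 stand highest and Ifnlr1 lowest, and KO and control values intermix except for Ifnar2, where the KO values run from 10.5 to 11.5 and the control values from 10.1 to 10.4.

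Ligands for these receptors were at or near 0. Of 23 genes for interferons and for Il10 and Il22, which also use Il10rb, 21 were listed at 0 in all 6 libraries, among them Ifnb1, Ifng, Ifne, Ifnk, Ifnl2, Ifnl3 and 13 genes of the Ifna series. Ifnz was listed at 0 in all 3 KO libraries and stood at 0.172, 0.137 and 0 FPKM in the control libraries, and Il10 stood at 0.228 FPKM in KO replicate 2 and at 0 in the other 5. No library held a value between 0 and 0.1001 FPKM, so a listing at 0 does not exclude a lower level. Ifna genes are near-identical copies of each other, and how the counting treated reads that fit several copies is not given in the sources used here.

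Ifnar1 (ENSMUSG00000022967), the type I receptor chain that carries Tyk2, was the highest of the 10. It had 26.3, 22.8 and 28.7 FPKM in KO replicates 1 to 3, against 26.8, 25.3 and 25.4 FPKM in control replicates 1 to 3. The KO libraries held both the lowest and the highest value, and the control values lay between them. The log2 fold change was 0.00 ± 0.09 (SE), with a 95% confidence interval from -0.20 to 0.20. Its partner Ifnar2 (ENSMUSG00000022971), which carries Jak1 and also binds Usp18, had 10.6, 10.5 and 11.5 FPKM in KO, against 10.4, 10.2 and 10.1 FPKM in control. All 3 KO values lay above all 3 control values. The KO mean was 6.22% above the control mean, and the log2 fold change of 0.08 ± 0.07 (SE, 95% interval from -0.08 to 0.24) did not pass (limma, adjusted p = 1.00).

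Ifngr1 (ENSMUSG00000020009), the ligand-binding chain for interferon gamma, had 12.4, 12.8 and 14.3 FPKM in KO, against 12.7, 13.1 and 13.2 FPKM in control. KO replicate 3 was the highest library and KO replicate 1 the lowest, so the groups overlapped. Ifngr2 (ENSMUSG00000022965), the chain that carries Jak2, had 10.7, 11.1 and 11.4 FPKM in KO, against 10.9, 12.0 and 11.4 FPKM in control. Control replicate 2 stood highest and KO replicate 1 lowest, and the groups overlapped. The 95% interval of the log2 fold change ran from -0.15 to 0.19 for Ifngr1 and from -0.20 to 0.11 for Ifngr2, the narrowest upper bound of the 10 at 1.08-fold.

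Ifnlr1 (ENSMUSG00000062157), the type III receptor chain, known mainly from epithelia, was the lowest of the 10. It had 1.98, 2.03 and 1.55 FPKM in KO, against 1.73, 1.77 and 1.56 FPKM in control. Replicate 3 was the lowest library in both groups, and the log2 fold change was 0.08 ± 0.11 (SE, 95% interval from -0.17 to 0.34). Summed over 12 epithelial markers, KO replicate 3 was also the lowest library, at 369 FPKM, beside 478 and 657 FPKM in KO replicates 1 and 2, and control replicate 3 was the lowest control, at 431 FPKM, beside 480 and 547 FPKM. The part of epithelium in the Ifnlr1 values was not tested, and in whole tissue a smaller share of cells of a type and less RNA per cell cannot be told apart.

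Il10rb (ENSMUSG00000022969), the chain that Ifnlr1 shares with the receptors for Il10 and Il22, had the largest log2 fold change of the 10, and 1 library set it. It had 7.75, 10.6 and 7.70 FPKM in KO, against 7.37, 8.09 and 8.41 FPKM in control. KO replicate 2 stood above all other libraries, while KO replicates 1 and 3 lay within the control range. The log2 fold change was 0.10 ± 0.12 (SE, 95% interval from -0.19 to 0.39), and without KO replicate 2 it was -0.04. That library is the only one of the 6 with Xist, the transcript of an inactive X chromosome, at 61.0 FPKM, and without the Y-linked Ddx3y, so it came from a female embryo and the other 5 from males. It was also the library with the highest sum over 28 leukocyte markers, at 233 FPKM, beside 189 and 171 FPKM in KO replicates 1 and 3 and 125 to 148 FPKM in control libraries. The same library was the highest of the 6 in summed epithelial markers (657 FPKM). It was the lowest in summed palatal mesenchyme markers (1774 FPKM) and endothelial markers (128 FPKM). Of the 22 leukocyte markers tested, all 22 had a log2 fold change above 0, as did 5968 of all 14714 tested genes. In limma 0 of the 22 passed, and 16 had an unadjusted p under 0.05, against 4.01% of all tested genes. Mpeg1, a pore protein of macrophages, had the smallest p of the list and stood at 4.25 ± 0.499 FPKM in KO and 2.19 ± 0.205 FPKM in control (SD, n = 3 each; limma, adjusted p = 0.0534), and Lyz2, a macrophage lysozyme, at 15.6 ± 2.51 FPKM in KO and 8.73 ± 1.35 FPKM in control. The T cell marker Cd3e was listed at 0 in all libraries. The part of sex, of leukocytes and of these other cell types in the Il10rb values was not tested.

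The genes whose pattern lay closest to Il10rb over the 6 libraries were Mrps14, Cyba, Lyl1, 4930452B06Rik and Psme2, by the root mean square difference of mean-centred log2(FPKM + 1) values, which was 0.0363 to 0.0440. The Il10rb values themselves spanned 0.47 on that scale. Cyba, a subunit of the phagocyte NADPH oxidase, had 37.4, 49.0 and 35.6 FPKM in KO, against 35.2, 39.9 and 41.5 FPKM in control, and Lyl1, a transcription factor of blood and endothelial cells, had 4.09, 5.27 and 3.77 FPKM in KO, against 3.56, 4.13 and 4.33 FPKM in control. Mrps14, the closest of all, had 7.10, 9.90 and 7.45 FPKM in KO, against 7.12, 8.01 and 8.28 FPKM in control. KO replicate 2 was the highest library for each of these genes, also for 4930452B06Rik and Psme2. Because the genes were chosen for closeness to Il10rb, this shared peak follows from the choice.

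Ifnar2, Il10rb, Ifnar1 and Ifngr2 are neighbours on chromosome 16 of GRCm38, all on the plus strand within 193 kb. Ifnar2 lies from 91372783 to 91405589, Il10rb from 91406164 to 91425834, Ifnar1 from 91485238 to 91507441 and Ifngr2 from 91547072 to 91565623. Only 574 bases separate the end of Ifnar2 from the start of Il10rb, and the annotation holds a readthrough gene across both, Gm21970, that was listed at 0 in all libraries. It shares 9.46% of the exonic bases of Ifnar2 and 14.9% of those of Il10rb, and how reads in shared exons were counted is not given in the sources used here. In the order of their positions, their levels were 10.6 ± 0.517, 8.33 ± 1.18, 25.9 ± 1.94 and 11.2 ± 0.435 FPKM over all 6 libraries (SD, n = 6). Ifnar1 stood above the other 3 in every library, and the ranges of Ifnar2 and Ifngr2 overlapped. Ifngr1 lies on chromosome 10 from 19591949 to 19610229 and Ifnlr1 on chromosome 4 from 135686287 to 135708181, both on the plus strand.

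Jak1 (ENSMUSG00000028530), the kinase that all 3 receptor types use, was the second highest of the 10. It lies on the minus strand of chromosome 4 from 101152367 to 101265282 and had 22.8, 20.8 and 22.2 FPKM in KO, against 23.3, 21.0 and 22.4 FPKM in control. Replicate 2 was the lowest library of both groups, and the ranges overlapped over most of their length. The log2 fold change was -0.02 ± 0.07 (SE, 95% interval from -0.18 to 0.14). Jak1 shares 4 exonic bases with Raver2 on the opposite strand, which averaged 7.97 FPKM.

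Jak2 (ENSMUSG00000024789), which serves the interferon gamma receptor beside many growth factor receptors, lies on the plus strand of chromosome 19 from 29251828 to 29313080. It had 10.5, 9.75 and 11.5 FPKM in KO, against 11.4, 9.69 and 9.23 FPKM in control, with overlapping groups and a log2 fold change of 0.06 ± 0.10 (SE, 95% interval from -0.17 to 0.29). Tyk2 (ENSMUSG00000032175), the partner of Jak1 on type I and III receptors, lies on the minus strand of chromosome 9 from 21104068 to 21131243. It varied least, with 5.66, 5.72 and 5.68 FPKM in KO, against 5.87, 5.65 and 5.83 FPKM in control. Its standard deviation over all 6 libraries was 1.64% of the mean, where that of the other 9 genes was 3.87% to 14.2%. An antisense gene, 1700084C06Rik, covers 8.07% of the Tyk2 exonic bases and was listed at 0 in 5 libraries.

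Socs1 (ENSMUSG00000038037), which binds and blocks Jak1, Jak2 and Tyk2, is itself a known response gene of interferons. It lies on the minus strand of chromosome 16 from 10782240 to 10785536, away from the receptor cluster. It had 3.44, 3.95 and 4.19 FPKM in KO, against 3.32, 4.38 and 4.15 FPKM in control. Replicate 1 was the lowest library in both groups, and the other 4 libraries intermixed. The log2 fold change was -0.02 ± 0.11 (SE), with a 95% interval from -0.29 to 0.24, which is 0.819-fold to 1.18-fold of FPKM + 1.

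Its promoter carries the letters that interferon-activated Stat and Irf complexes are known to bind, and is shown for that reason beside promoters of Isg15 and Bst2, response genes that rose in KO. The 250 bases before the start site of 9 of the 10 genes (all but Il10rb) were searched in RefSeq sequence of GRCm38.p6 for GAAA, any 2 bases and GAAA again, the core of the interferon-stimulated response element, on both strands. Of the 9, Socs1 alone held it, with 2 matches that overlap by 4 letters, beginning 83 and 77 bases before the start. The 3 stretches below are 60 bases long, read 5′ to 3′ along the gene's strand, with the matched letters in capitals.
Socs1, chr16:10785577-10785636, minus strand: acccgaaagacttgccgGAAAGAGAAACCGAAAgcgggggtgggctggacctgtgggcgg
Isg15, chr4:156200859-156200918, minus strand: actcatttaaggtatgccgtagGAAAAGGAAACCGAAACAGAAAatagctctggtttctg
Bst2, chr8:71537563-71537622, minus strand: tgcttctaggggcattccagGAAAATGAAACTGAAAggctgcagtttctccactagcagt
The 10 letters GAAACCGAAA stand in both Socs1 and Isg15, where 3 matches run into each other. Of all 32851 promoter entries, 2.98% held the motif in this window, as did 2.87% of the 10330 tested genes with an entry and 14 of the 36 such genes called higher in KO. The motif TTCNNNGAA, the core of the gamma-activated site, stood in 7.02% of entries and, of the 9 genes, in Ifnar2 alone, as TTCCTGGAA beginning 214 bases before the start. In these promoters, then, the matched letters were present both in Isg15 and Bst2, which rose, and in Socs1, which did not pass. A match describes the sequence and does not show that a factor was bound.

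Isg15, a ubiquitin-like protein, had 22.4, 36.9 and 24.7 FPKM in KO, against 1.05, 1.15 and 0.959 FPKM in control. Bst2 (tetherin), which retains virus particles on the cell surface, had 45.0, 57.8 and 53.5 FPKM in KO, against 8.72, 7.80 and 8.64 FPKM in control. Both rose (limma, adjusted p = 1.16e-04 and 1.14e-04). Of 30 tested interferon-response genes, a list in part made of genes already known to be higher in these KO samples, 22 rose and 8 did not pass, with a median log2 fold change of 1.26. Ifi27 and Oasl2 were the next by p, with log2 fold changes of 1.26 and 2.48 (limma, adjusted p = 3.10e-04 and 3.40e-04). Of 9 tested genes known for responding to interferon gamma, 3 rose, the GTPase genes Irgm1, Igtp and Irgm2, with log2 fold changes of 1.54, 1.51 and 1.103 (limma, adjusted p = 0.00179, 0.00371 and 0.0183), and 6 did not pass, with a median log2 fold change of 0.81 over the 9. Below 0 were 2 of the 9, Cd74 at -0.36 and H2-Ab1 at -0.28, both genes of MHC class II antigen presentation, singled out after their values were seen (limma, adjusted p = 1.00 for each). H2-Ab1 had 0.876, 1.41 and 0.954 FPKM in KO, against 1.47, 1.61 and 1.46 FPKM in control, without overlap. The Irgm2 call was lost without any 1 of 5 libraries (all but KO replicate 1), with adjusted p in limma from 0.0599 to 0.117. It was also lost with sex as a covariate (limma, adjusted p = 0.0619), where the fold change equals that without KO replicate 2, the only female library. The list is also partly of genes seen before to be higher here, and several of them respond to type I interferon too. In both lists some genes entered the test only through high KO values, since entry was by the mean over all 6 libraries. Usp18 had means of 6.78 FPKM in KO and 0.403 FPKM in control, and Irgm2 2.95 FPKM in KO and 0.825 FPKM in control. The counts and medians of both lists thus favour genes higher in KO. The interferon-response list shares 2 genes with the Stats and Irf9 and 1 with the inhibitors. Leukocyte markers summed higher in every KO library than in any control library, with the values given above for Il10rb, and their part in these differences was not tested.

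**Figure D2:**
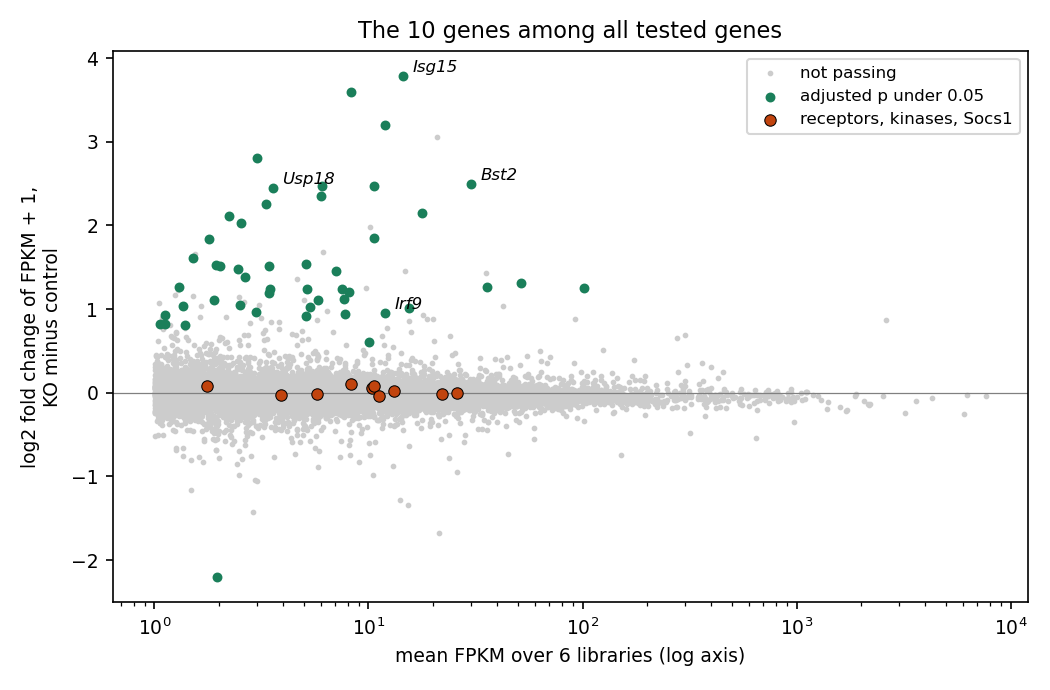
Log2 fold change of FPKM + 1, KO minus control, against mean FPKM (log axis) for 14714 tested genes, with the 10 receptor, kinase and Socs1 genes in orange and genes passing in limma in green. The 10 lie between -0.04 and 0.10, on or near the zero line, while Isg15, Bst2, Usp18 and Irf9 stand between 0.95 and 3.79.

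The levels of the 10 genes spanned 14.6-fold. From high to low the means over all 6 libraries were 25.9 FPKM for Ifnar1, 22.1 for Jak1, 13.1 for Ifngr1, 11.2 for Ifngr2, 10.6 for Ifnar2, 10.3 for Jak2, 8.33 for Il10rb, 5.73 for Tyk2, 3.90 for Socs1 and 1.77 for Ifnlr1. Among tested genes, Ifnar1 lay above 80.2% and Ifnlr1 above 10.6%. Neighbours in this order did not separate beyond their spread for Ifngr2, Ifnar2, Jak2 and Il10rb, where each was higher than the next in 5 of 6 libraries and the ranges overlapped. The ranges of Ifnar1 and Jak1 overlapped too, though Ifnar1 was higher in 6 of 6 libraries. For the other 5 neighbouring pairs the ranges over the 6 libraries were apart.

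Ratios within a library do not depend on how libraries were scaled, and they were compared between partners. The ratio of Ifnar1 to Ifnar2 was 2.49, 2.17 and 2.49 in KO and 2.58, 2.48 and 2.52 in control. For Ifngr1 over Ifngr2 it was 1.16, 1.15 and 1.26 in KO and 1.16, 1.099 and 1.15 in control. The type III chains were the least balanced pair, with Ifnlr1 over Il10rb at 0.256, 0.191 and 0.201 in KO and 0.234, 0.219 and 0.186 in control. Jak1 stood above Jak2 by 2.17, 2.13 and 1.94 times in KO and 2.03, 2.16 and 2.43 times in control, and above Tyk2 by 4.02, 3.63 and 3.91 times in KO and 3.96, 3.71 and 3.85 times in control. With Jak2 over Tyk2, 6 ratios were compared. The groups overlapped for all 6, and the exact two-sided permutation p was 0.3 to 1.0 (0.75 to 1.0 adjusted over the 6), where 0.1 is the smallest that 3 against 3 libraries allow.

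**Figure D3:**
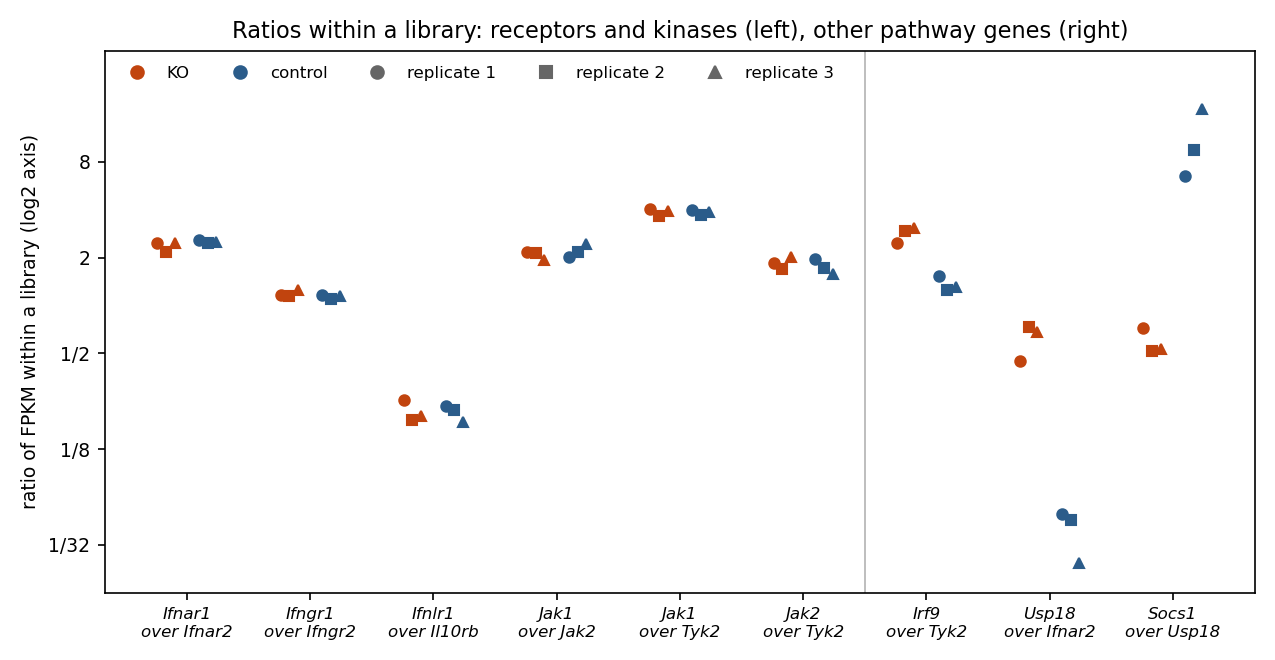
Ratio of FPKM between 2 genes within each library (log2 axis), KO left of control, with marker shape for the replicate. For the 6 ratios among receptors and kinases KO and control values intermix. For the 3 ratios with Irf9 or Usp18 on the right, chosen after the values were seen, KO and control values lie apart.

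Of the transducers described here, Irf9 rose in KO. Irf9, which binds DNA in a complex with Stat proteins, had 14.1, 16.8 and 17.4 FPKM in KO, against 8.94, 7.07 and 7.58 FPKM in control, and rose by 0.95 ± 0.11 (log2, SE; adjusted p = 0.0124 in limma). The Irf9 call was lost without KO replicate 3, control replicate 2 or control replicate 3 (limma, adjusted p = 0.0599, 0.0707 and 0.104) and with a replicate block (0.0713), in a range over alternatives from 0.00452 to 0.104. Stat2 had 6.94, 8.47 and 9.73 FPKM in KO, against 6.46, 5.95 and 6.22 FPKM in control. Its groups did not overlap, and it did not pass (log2 fold change 0.37 ± 0.11, SE; limma, adjusted p = 0.970). Of the 6 tested genes in the list of Stats and Irf9, 1 rose and 5 did not pass, with a median log2 fold change of 0.05 (0.09 without KO replicate 1 and 0.03 without control replicate 2). Stat6, Stat5a and Stat5b, which serve other cytokines, had log2 fold changes of 0.04, 0.05 and -0.0043.

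Set against Tyk2, Irf9 stood higher in each KO library than in any control library. The ratio of Irf9 to Tyk2 was 2.49, 2.94 and 3.07 in KO and 1.52, 1.25 and 1.30 in control, a 2.08-fold difference. This ratio and the 2 with Usp18 below were chosen after the values were seen. All 3 separated the groups without overlap, with an exact two-sided permutation p of 0.1 each, the smallest possible here. Irf9 and Usp18 had already been seen to differ, so this separation and its p follow from the choice and add no support.

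**Figure D4:**
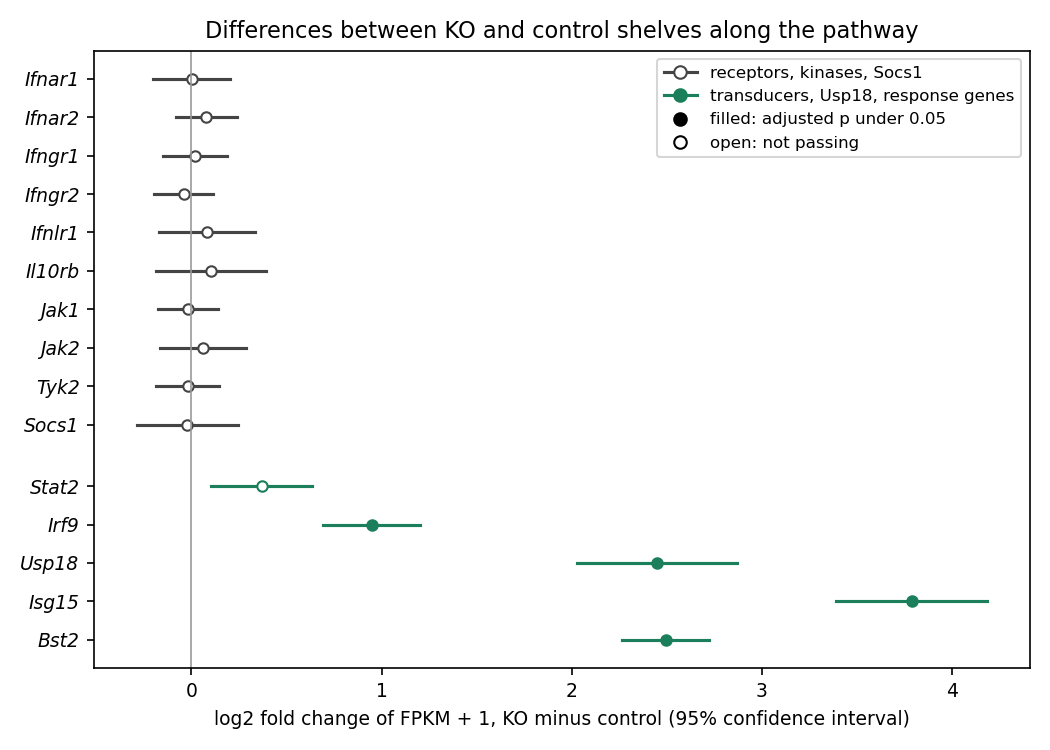
Log2 fold change of FPKM + 1, KO minus control, with its 95% confidence interval from limma (n = 3 each), for the 10 genes (grey) and for Stat2, Irf9, Usp18, Isg15 and Bst2 (green), with filled points for an adjusted p under 0.05. The intervals of the 10 genes all include 0 and end within -0.29 and 0.39, while Irf9, Usp18, Isg15 and Bst2 lie to their right.

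Of the inhibitors, Usp18 rose and Socs1 did not pass. Usp18, which sits on Ifnar2 and keeps Jak1 from engaging it, had 4.77, 7.69 and 7.89 FPKM in KO, against 0.510, 0.458 and 0.242 FPKM in control, and rose by 2.45 ± 0.18 (log2, SE; adjusted p = 0.00141 in limma). Usp18 entered the test only through its KO values, since its control mean was 0.403 FPKM. It passed in all 18 alternatives that tested it, the fit without a filter among them. The ratio of Usp18 to Ifnar2 was 0.451, 0.731 and 0.683 in KO and 0.0490, 0.0448 and 0.0240 in control, a 16.2-fold difference. Socs1 stood at 0.721, 0.514 and 0.531 of Usp18 in KO, against 6.52, 9.56 and 17.1 times Usp18 in control, so the order of these inhibitors was opposite in the groups. The control values of Usp18, 0.242 to 0.510 FPKM, were low, where the lowest nonzero value of a library was 0.1001 to 0.118 FPKM. The size of both ratios with Usp18 is therefore imprecise. Of 18 inhibitors of Jak-Stat signalling beside Socs1, among them the other Socs genes, phosphatases and Pias proteins, 1 rose (Usp18) and 17 did not pass, with a median log2 fold change of -0.01. Ptpn6, a phosphatase of blood cells and epithelia, was next by p at 3.83, 5.73 and 3.64 FPKM in KO, against 3.59, 3.25 and 3.86 FPKM in control, again with KO replicate 2 highest. Ptpn1 and Ptpn2, phosphatases known to act on Jak and Stat proteins, had log2 fold changes of -0.10 and -0.09, and Socs7 of -0.07.

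Other receptors that use the same kinases did not pass either. Of 35 listed genes for such receptors and Jak3, 16 were tested, 0 passed and 7 were listed at 0 in all libraries. In limma 1 of the 16 had an unadjusted p under 0.05, where 4.01% of all tested genes did. Groups did not overlap for 2 of the 16 with KO higher and 1 with KO lower, against 3.27% and 5.79% of all tested genes. The median log2 fold change of the 16 was -0.09, and -0.05 without KO replicate 1, KO replicate 2 or control replicate 3. The gene with an unadjusted p under 0.05 was Il2rg, the gamma chain that lymphoid cytokine receptors share and that carries Jak3. It had 2.03, 2.93 and 2.29 FPKM in KO, against 1.32, 1.19 and 1.32 FPKM in control, without overlap (log2 fold change 0.58 ± 0.12, SE; limma, adjusted p = 0.258). Epor, the erythropoietin receptor, which signals through Jak2, had a log2 fold change of 0.20 and did not pass.

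Several facts of the libraries bear on these values. Bcar1, the gene for p130Cas, had 1.69, 1.69 and 1.31 FPKM in KO, against 1.80, 1.97 and 2.09 FPKM in control. The KO values lay below the control values (exact two-sided permutation p = 0.1, the smallest possible) but the gene did not pass (limma, adjusted p = 1.00). A single FPKM per gene does not tell deleted exons from others, so Bcar1 is a weak check of the labels. Why much of its signal remained in KO was not tested. Palatal mesenchyme markers summed to 1774 to 2404 FPKM in KO and 1877 to 2350 FPKM in control libraries, and 0 of 12 passed (0 also at an unadjusted p under 0.05, in limma), with Tbx22 and Meox2 smallest in p. Most of these sums came from the collagen genes Col1a1 (means of 808 FPKM in KO and 859 FPKM in control) and Col1a2 (599 and 608 FPKM). Of all 14714 tested genes, 8746 had a log2 fold change below 0, and 5.79% were lower in KO without overlap. An unadjusted p under 0.05 in limma was seen for 4.01% of them. Of 10 endothelial markers 0 passed in limma (4 at an unadjusted p under 0.05, with Egfl7 and Cldn5 smallest in p), all 10 had a log2 fold change below 0, and 5 were lower in KO without overlap. Their sums were 128 to 155 FPKM in KO and 160 to 182 FPKM in control libraries, and their median log2 fold change was -0.18, and -0.08 without KO replicate 2. Of 10 skeletal muscle markers 0 passed in limma (1 at an unadjusted p under 0.05, with Neb and Myh3 smallest in p), and all 10 lay below 0, 1 of them without overlap. Their sums overlapped, at 294 to 427 FPKM in KO and 289 to 503 FPKM in control libraries. Their median was -0.22, and it was -0.14 without KO replicate 1, -0.34 without KO replicate 2, -0.41 without control replicate 1 and -0.06 without control replicate 3. Of 12 epithelial markers 0 passed in limma (0 also at an unadjusted p under 0.05, with Grhl3 and Trp63 smallest in p). Their median was 0.01 and ran from -0.14 without KO replicate 2 to 0.19 without KO replicate 3, and it was also below 0 without control replicate 3, at -0.04. The part of these cell types in the results above was not tested. Litters are not recorded in the labels, and the p-values reflect the spread between these 6 samples alone, which may be partly technical. Depth is unknown, since the table gives no read numbers, so the counting error of the values is not known and could not be modelled.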

How the data were processed

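RNA of 3 KO and 3 control E14.5 samples was extracted with Promega's ReliaPrep system, per the labels' protocols, and libraries were grouped by title. The authors deposited FPKM for 55631 Ensembl IDs. The unit comes from the table's name. The submitters' processing notes name the build mm10 and DESeq2 1.5.2. Aligner, counter, annotation and strandedness: not given in the sources used here. Per library, the lowest nonzero value was 0.1001 to 0.118 FPKM and was shared by 84 to 109 genes.

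Symbols and coordinates came from GENCODE M21 (GRCm38) by gene ID (50876 IDs matched, 4755 did not). Genes averaging 1 FPKM or more were fitted as log2(FPKM + 1) by genotype with limma 3.58.1 in R 4.3.3 (eBayes with a trend, two-sided, Benjamini-Hochberg over all tested genes, threshold 0.05). Fold changes on this scale understate those of low genes. Single values used exact permutation tests (20 assignments, scipy 1.17.1). The fit was tested on simulated data. The genes and lists were chosen with earlier results of these data known. Some genes are not reported here and were left out of the lists and their counts. The text names the 10 genes and Bcar1, the called Stats and inhibitors with up to 4 others of smallest p, up to 4 called genes of each other list (2 of smallest p where none was called), and the 5 genes closest in pattern to the gene with the largest change. Raver2, Gm21970, 1700084C06Rik, Xist, Ddx3y, Cd3e, Col1a1 and Col1a2 were added for position or as checks. Promoter sequences are RefSeq's, on GRCm38.p6, matched for 9 of the 10 symbols. Alternatives were other pseudocounts (0.1, 0.01), filters (none, 0.1, 5 FPKM), scalings (quantile, median of ratios, TPM) and eBayes settings, library weights, a replicate block, embryo sex as a covariate, and leaving out each library in turn. Because all 10 genes passed the filter, the permutation test kept for genes under it was not needed.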

Additional observations from a re-analysis of the deposited data

How the results depend on the processing

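In 19 alternatives 0 of the 10 genes passed, with 8 of the 10 tested at a filter of 5 FPKM, which drops Socs1 and Ifnlr1. Their log2 fold changes lay near 0, and several changed sign. With library weights Ifngr1 was -0.0194, Il10rb -0.0075 and Jak1 0.0465. With embryo sex as a covariate Il10rb was -0.0365 and Jak1 0.0178. These equal the values without KO replicate 2, the only female library, so sex and that library cannot be told apart. Rescaled to TPM, Jak1 was 0.0122, Socs1 0.0031 and Tyk2 0.007, and after quantile normalization Jak1 was 0.0036. Leaving out each library gave -0.0731 to 0.0858 for Ifnar1, -0.0387 to 0.0561 for Ifngr1, -0.0365 to 0.1726 for Il10rb, -0.0579 to 0.0178 for Jak1 and -0.1176 to 0.041 for Socs1. Likewise the log2 ratio of Ifnlr1 to Il10rb ran from -0.1161 to 0.0954 and that of Jak1 to Tyk2 from -0.0263 to 0.0474. For these sign changes the cause was not tested.

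Over all genes, 24 rose at a filter of 5 FPKM, and 32 to 48 with a library left out. Of genes that fell there were 2 with no filter, 2 at 0.1 FPKM, 0 at 5 FPKM, 2 with the sex covariate and 1 to 2 with a library left out. Of interferon gamma response genes 5 rose with no filter, 5 at 0.1 FPKM and 1 at 5 FPKM, where fewer genes are tested, and 2 to 4 with a library left out. Their median, 0.81, was 1.55 and 1.72 with pseudocounts of 0.1 and 0.01, 0.30 with no filter, 0.58 at 0.1 FPKM and 1.198 in TPM. Of interferon-response genes 12 rose at 5 FPKM, and their median, 1.26, was 2.03 and 2.12 with those pseudocounts and 1.65 in TPM. Of leukocyte markers 1, Mpeg1, passed without the eBayes trend, with robust eBayes and with library weights (limma, adjusted p = 0.0349, 0.0498 and 0.0121). Of inhibitors 0 passed at 5 FPKM, since Usp18 lies under that filter, and their median, -0.01, ran from -0.0282 to 0.0475 with a library left out. The median of other receptors, -0.09, was -0.0143 with no filter, -0.0154 at 0.1 FPKM and 0.0014 with weights. Of the Stats and Irf9, 0 to 1 passed with a library left out. Stat5b was 0.003, 0.0105, 0.0257 and 0.0288 under quantile, median-of-ratios and TPM scaling and library weights. With a library left out Stat5b ran from -0.0434 to 0.0251, Stat5a from -0.0276 to 0.0985 and Trp63 from -0.0413 to 0.2251.

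Same-numbered replicates deviated from their group means with correlations of 0.019, 0.305 and -0.241. With 3 libraries a group and no litters recorded, these values cannot settle whether the numbers pair the samples. With a replicate block 41 genes rose and 1 fell, and 0 of the Stats and Irf9 passed. Depth is unknown, so precision rests on 3 libraries a group. A listing at 0 leaves levels under 0.1001 FPKM undetectable.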
